A study of Mus musculus with 8 samples.

Results

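The AMPA receptor genes examined here were the 4 pore subunit genes Gria1 to Gria4 and 6 genes of auxiliary proteins, Cacng2, Cacng3, Cacng4, Cacng8, Cnih2 and Cnih3. They were chosen by name, and each matched 1 row of the 26229 genes in the authors' deposited table. AMPA receptors are the glutamate-gated channels that carry most fast excitatory transmission in the cortex. Each receptor is a tetramer of the proteins GluA1 to GluA4, made from Gria1 to Gria4, and the subunit mix sets calcium permeability and gating. TARPs (transmembrane AMPA receptor regulatory proteins, from Cacng genes) and cornichon homologs (from Cnih genes) bind the tetramer, help it reach the surface and slow its closing.

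RNA was measured in primary cortical neurons, taken from mouse embryos at E16.5 and kept in culture for 12 days. The knockout group (KO, 4 libraries) carried the genotype H2BE-KO/mCherry-KI, a loss of the histone variant H2BE with an mCherry knock-in, and the wild-type group (WT, 4 libraries) came from the same kind of culture. Zygosity, strain and sex of the embryos are not stated in the sources used here. The libraries of a genotype are called biological replicates in the labels, which do not say whether each came from a separate embryo or litter, so p-values measure the spread between these libraries. Values per library and their depths were not analysed here. The files give, for each gene, the mean normalized count over all 8 libraries, the log2 fold change with its standard error (SE), and an adjusted p. The design asks which transcripts differ in neurons without H2BE.

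The 4 pore subunit genes share a glutamine codon in the loop that lines the pore. An enzyme made from Adarb1 edits an adenosine in this codon of the Gria2 transcript, so that it is read as arginine, and receptors that hold edited GluA2 pass little calcium. The coding strand around the codon is shown for all 4 genes because editing of this codon sets GluA2 apart. Gria3 changed in the same direction as Gria2, and Gria1 and Gria4 changed in the other. The codon is in capitals, with 27 bases before it and 18 after it, from GENCODE M21 transcripts.
Gria1: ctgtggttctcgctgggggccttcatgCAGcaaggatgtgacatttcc
Gria2: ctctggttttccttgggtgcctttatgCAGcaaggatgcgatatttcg
Gria3: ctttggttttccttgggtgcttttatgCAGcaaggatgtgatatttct
Gria4: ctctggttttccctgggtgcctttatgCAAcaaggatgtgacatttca
In GRCm38, the assembly that mm10 names, the codon is at chr11:57243094-57243096 on the plus strand in Gria1, chr3:80706911-80706913 on the minus strand in Gria2, chrX:41610265-41610267 on the plus strand in Gria3 and chr9:4464137-4464139 on the minus strand in Gria4. It is in exon 11 of the Gria1, Gria2 and Gria3 transcripts used and in exon 12 of that of Gria4, with 23 exon bases left after it in each. Gria2 and Gria3 were identical at 44 of the 48 bases, the most of any pair. Gria4 shared 43 with Gria2, 42 with Gria3 and 41 with Gria1, so likeness did not follow the direction of change throughout. Gria1 shared 39 with each of Gria2 and Gria3, the fewest. Editing itself was not measured in these data.

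The header of the table names no direction, so the sign was read from the targeted gene, H2bc21, which encodes H2BE. The authors' deposited table gave it -3.45 on the log2 scale once the sign was turned to KO over WT (SE 0.19, adjusted p = 4.49e-68). Were that reading wrong, all rises below would be falls and all falls rises. All 8 pan-neuronal markers were detected, with mean normalized counts from 2650 to 90482 in the authors' deposited table. Of them 4 passed as higher, namely Tubb3 (0.74), Rbfox3 (0.72), Elavl4 (0.64) and Elavl3 (0.33), by the authors' deposited table, and none passed as lower. Over all tested genes, 21.8% passed in either direction at an adjusted p of 0.05. The marker list was not uniform, with 6 estimates above 0, 2 below 0 and a median of 0.26. The 2 below 0 were Syt1 (-0.31) and Snap25 (-0.23) in the authors' deposited table. The part of these markers in the changes below was not tested.

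The AMPA receptor genes changed in opposite directions within the pore subunit family and within the TARP family. Among the pore subunits, Gria2 and Gria3 were higher and Gria1 and Gria4 lower in KO neurons. Among the TARP genes, Cacng4 was higher and Cacng2 lower, and Cacng3, Cacng8 and both cornichon genes did not pass an adjusted p of 0.05. All 10 genes were tested, and 3 rose and 3 fell. Of all 18085 tested genes, 21.8% passed in either direction, made up of 11.0% higher and 10.9% lower in the knockout. The share was 30.0% among the 7539 tested genes with a mean count within the range of the AMPA receptor genes. The median log2 fold change of the 10 genes was 0.02, against -0.02 over all tested genes.

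**Figure D1:**
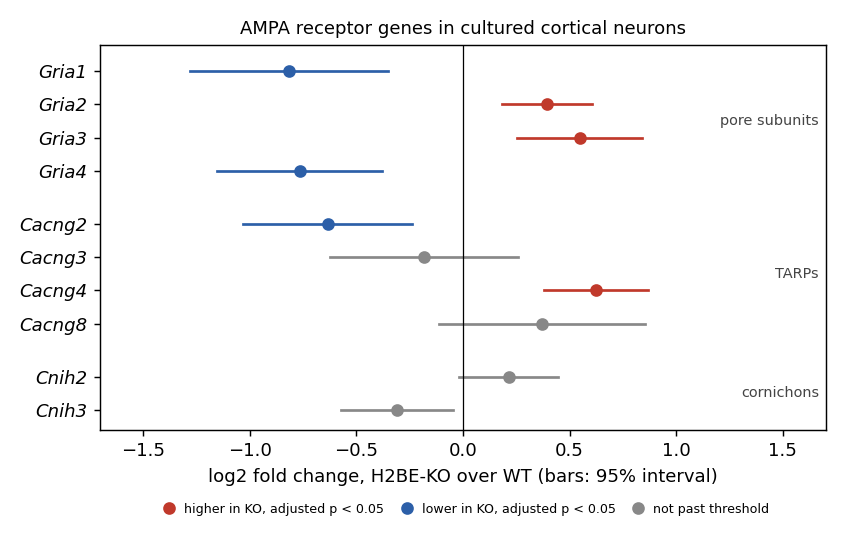
Log2 fold change of each AMPA receptor gene, H2BE-KO over WT (x axis), with bars for the 95% interval, for the pore subunits, TARPs and cornichons from top to bottom. Red and blue genes passed an adjusted p of 0.05, and the intervals of Gria1 and Gria4 lie wholly below 0 while those of Gria2 and Gria3 lie wholly above it.

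Gria1 encodes GluA1, a subunit whose phosphorylation and delivery to synapses are central to long-term potentiation. Its mean normalized count was about 15249 in KO neurons, against 26848 in WT neurons. These group levels, here and below, are approximations worked out from the deposited mean count and fold change, and carry no error of their own. On the log2 scale the authors' deposited table had Gria1 at -0.82 (SE 0.24, adjusted p = 0.00498), with a 95% interval of -1.28 to -0.35. Gria4 encodes GluA4, a subunit with fast kinetics that is abundant in parvalbumin interneurons. Its level was about 4654 in KO neurons, against 7907 in WT neurons. The authors' deposited table placed Gria4 at -0.76 (SE 0.20, adjusted p = 0.00126), with an interval of -1.15 to -0.38. The KO levels of these 2 genes were 56.8% and 58.9% of WT, and their intervals overlapped along most of their length.

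Gria2 encodes GluA2, the subunit that limits calcium entry once edited. Its level was about 25516 in KO neurons, against 19427 in WT neurons. According to the authors' deposited table its log2 fold change was 0.39 (SE 0.11, adjusted p = 0.0025), with an interval of 0.18 to 0.60. Gria2 was the 1 AMPA receptor gene on chromosome 3, the chromosome of H2bc21, and lay 15.4 Mb from it. After removal of a fitted dependence of fold changes on exon length and base composition, Gria2 no longer passed (0.26, adjusted p = 0.0632). Gria3 encodes GluA3, a subunit that pairs mainly with GluA2. It was at about 5610 in KO neurons, against 3840 in WT neurons, and the authors' deposited table gave it 0.55 (SE 0.15, adjusted p = 0.00264), with an interval of 0.25 to 0.84. The intervals of Gria2 and Gria3 overlapped each other and neither met those of Gria1 and Gria4. The difference between 2 genes was not tested, since their shared variation between libraries is not part of a table of this kind.

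Cacng4, a TARP gene expressed strongly in developing brain, had the smallest adjusted p of the 10 genes. It was at about 5263 in KO neurons, against 3414 in WT neurons. By the authors' deposited table its log2 fold change was 0.62 (SE 0.12, adjusted p = 1.44e-05), a fold of 1.54 with an interval of 1.30 to 1.82. Cacng2 encodes stargazin, the TARP whose loss in stargazer mice abolishes AMPA currents of cerebellar granule cells. Its level was about 2073 in KO neurons, against 3218 in WT neurons. The log2 fold change of Cacng2 was -0.63 (SE 0.20, adjusted p = 0.0123) as given in the authors' deposited table, with an interval of -1.03 to -0.24. Cacng2 shared 323 exon bases with A730060N03Rik, an antisense gene with a mean count of 68.1 in the authors' deposited table, and whether counting used strand is not given in the sources used here.

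Cacng8, the main TARP gene of the hippocampus, was measured least precisely. It had the lowest mean count of the 10 genes, 715 in the authors' deposited table, and its log2 fold change was 0.37 (SE 0.25, adjusted p = 0.297). The interval, -0.11 to 0.86, holds changes as large as those of Gria3 and Cacng4. Cacng3, a TARP gene of the cortex, was at -0.18 (SE 0.23, adjusted p = 0.621) in the authors' deposited table, with an interval of -0.62 to 0.26.

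The cornichon homologs help export AMPA receptors from the endoplasmic reticulum and slow their deactivation. Cnih2 was at about 7555 in KO neurons, against 6513 in WT neurons, and its log2 value in the authors' deposited table was 0.21 (SE 0.12, adjusted p = 0.192). Its interval ran from -0.02 to 0.45, and after the same removal it passed (0.31, adjusted p = 0.0465). Cnih2 shared 14 exon bases with Yif1a on the other strand. Cnih3 was at about 4031 in KO neurons, against 4993 in WT neurons. The authors' deposited table gave Cnih3 -0.31 (SE 0.13, unadjusted p = 0.0212, adjusted p = 0.0815). Neither cornichon gene passed, and their estimates had opposite signs.

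**Figure D2:**
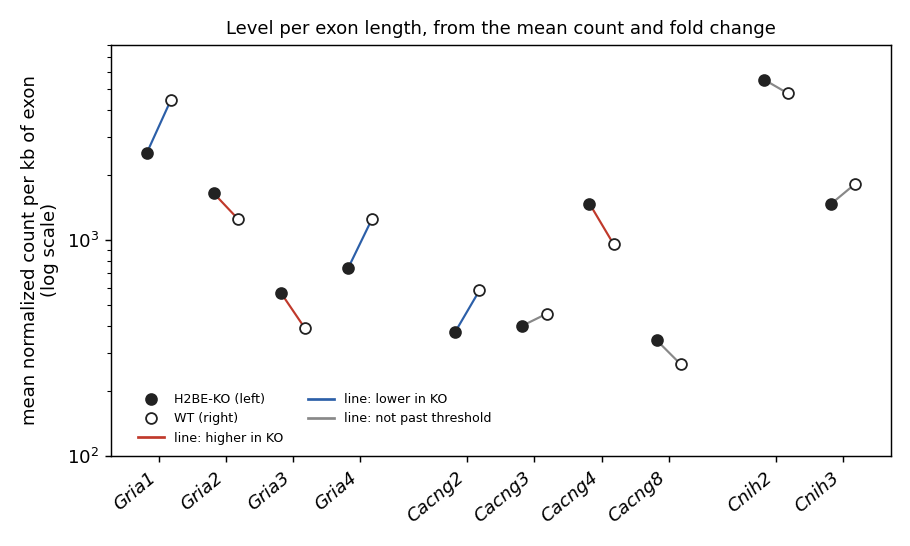
Mean normalized count per kilobase of annotated exon (log scale) for each AMPA receptor gene, with H2BE-KO at the left (filled) and WT at the right (open) of each pair, worked out from the deposited mean count and fold change. Cnih2 is the highest in KO neurons at 5518 per kb and, with this length, Cacng8 the lowest at 344, and line colours mark genes past the threshold.

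Levels between genes were compared per kilobase of annotated exon. In KO neurons the order from the highest was Cnih2 (5518 normalized counts per kb), Gria1 (2523), Gria2 (1641), Cacng4 (1472), Cnih3 (1465), Gria4 (738), Gria3 (569), Cacng3 (401), Cacng2 (376) and Cacng8 (344). In WT neurons it was Cnih2 (4758), Gria1 (4443), Cnih3 (1815), Gria4 (1254), Gria2 (1249), Cacng4 (955), Cacng2 (584), Cacng3 (455), Gria3 (389) and Cacng8 (266). The order depends in part on the length used. Per kilobase of the longest transcript, a choice made after the data were seen, Gria2 was at 2460 in KO neurons, against 1873 in WT neurons, and Gria4 at 855 in KO neurons, against 1453 in WT neurons, so that Gria2 was above Gria4 in both groups. With that length Cacng8 (425) was above Cacng3 (401) and Cacng2 (376) in KO neurons. The spread of these levels between libraries was not analysed here, so neighbours in the order cannot be called different.

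Within the summed pore subunit level per kb, Gria2 made up 30.0% in KO neurons, against 17.0% in WT neurons. Gria1 made up 46.1% in KO neurons, against 60.6% in WT neurons. Gria3 held 10.4% in KO neurons, against 5.31% in WT neurons, and Gria4 held 13.5% in KO neurons, against 17.1% in WT neurons. The summed level was 5472 per kb in KO neurons, against 7336 in WT neurons. The exon union of Gria2, 15548 bases, is much longer than its longest transcript, 10371 bases. Divided by the longest transcript, the Gria2 share was 34.4% in KO neurons, against 21.04% in WT neurons, and that of Gria1 was 38.5% in KO neurons, against 54.4% in WT neurons. Gria3 then held 15.1% in KO neurons, against 8.28% in WT neurons, and Gria4 held 12.0% in KO neurons, against 16.3% in WT neurons. The shares depend on the length used, and Gria3 was above Gria4 in KO neurons with the longest transcript but below it with the exon union. Gria2 and Gria3 held a larger part in KO than in WT neurons with either length. Within the sum of Cacng2, Cacng3, Cacng4 and Cacng8, Cacng4 held 56.8% in KO neurons, against 42.3% in WT neurons. Cacng2 held 14.5% of that sum in KO neurons, against 25.8% in WT neurons. The sum leaves out Cacng5 and Cacng7, so these are not shares of all TARP genes. Cacng7 was at 2110 per kb of exon in KO neurons, against 2133 in WT neurons, above Cacng4 in both groups. All shares in this paragraph are descriptions without a test.

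**Figure D3:**
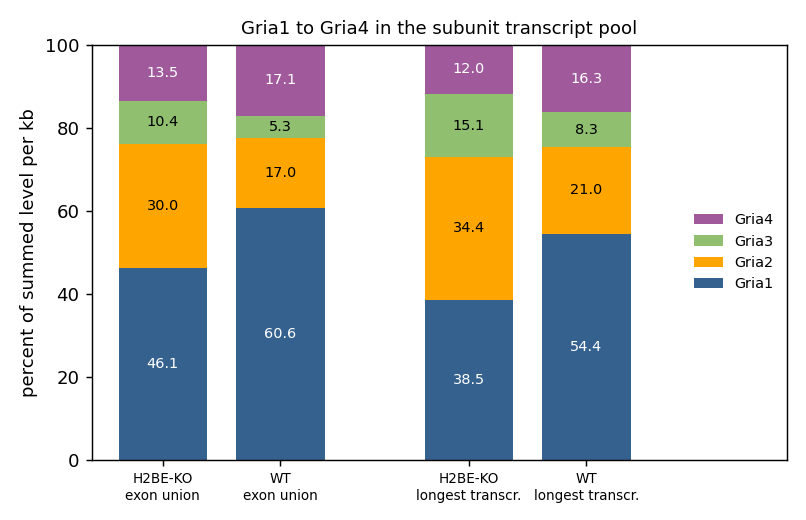
Share of each pore subunit gene in the summed Gria1 to Gria4 level per kilobase (percent), for H2BE-KO and WT, per union of exons (left pair) and per longest transcript (right pair). The Gria2 block is larger in H2BE-KO than in WT with both lengths (30.0% and 17.0%, then 34.4% and 21.04%).

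Other genes known to act on AMPA receptors were described from lists, together with the 4 remaining Cacng and Cnih genes, listed by family only. Of these 61 genes, 7 rose, 10 fell and 44 missed the threshold, and the median was -0.02 on the log2 scale. Their share of calls was 27.9%, against the 21.8% of all tested genes given above. It was below the 30.0% of tested genes within the AMPA receptor genes' range of mean count. The median mean count of the 61 genes was 5178, against 438 over all tested genes. The further auxiliary subunits held 7 of these 17 calls. Of these 12 genes, 3 rose, 4 fell and 5 missed the threshold, and the median was 0.24. Gsg1l, whose protein binds the receptor and lowers its currents, was at 1.60 (SE 0.23, adjusted p = 4.06e-10) in the authors' deposited table, or 1619 in KO neurons against 532 in WT neurons. Olfm2 and Olfm3 encode olfactomedins, secreted proteins found with AMPA receptors. They moved apart, at 0.86 (SE 0.16) and -1.49 (SE 0.33) in the authors' deposited table. Shisa8 fell by 1.95 on the log2 scale (SE 0.41) at a mean count of 67.2 in the authors' deposited table. Named after their values were seen, Shisa7 was at 0.50, Shisa9 at -0.58 and Cacng5, a type II TARP gene, at -1.12 in the authors' deposited table.

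The other lists follow, to be read against the 21.8% of all tested genes that passed in either direction. Within the AMPA receptor genes' range of mean count that share was 30.0%. Extracellular proteins that cluster or anchor receptors gave 2 falls and no rise of 5. Nptx2, an activity-regulated pentraxin gene, was at -1.93 (SE 0.50, adjusted p = 0.00128) and Lgi1, the gene of a secreted epilepsy protein, at -0.98 (SE 0.18, adjusted p = 1.61e-06) in the authors' deposited table. Kinases and phosphatases that act on the receptor or on TARPs gave 3 rises and 1 fall of 13. Prkcb (1.08) and Prkca (-0.71), genes of protein kinase C isoforms, moved apart, while Ppp3cb, a calcineurin subunit gene (0.53), and Camk2b, a calcium/calmodulin kinase gene (0.53), rose, all as in the authors' deposited table. Genes of scaffolds and trafficking gave 1 rise and 1 fall of 18, the synaptic scaffold genes Dlg2 (0.35) and Dlg1 (-0.49) in the authors' deposited table. Genes of receptor assembly in the endoplasmic reticulum gave 1 fall of 6, Abhd12, a lipase gene, at -0.47 in the authors' deposited table. The 3 genes listed for RNA editing gave no call by the deposited Wald test and none at an unadjusted p of 0.05. Their SE reached 0.71. Adarb1, which edits the Gria2 codon shown above, was at -0.02 (SE 0.16) and Adar at -0.08 (SE 0.18) in the authors' deposited table. Among the remaining Cacng and Cnih genes 1 of 4 fell, Cnih4, at -0.72 (SE 0.16) in the authors' deposited table.

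**Figure D4:**
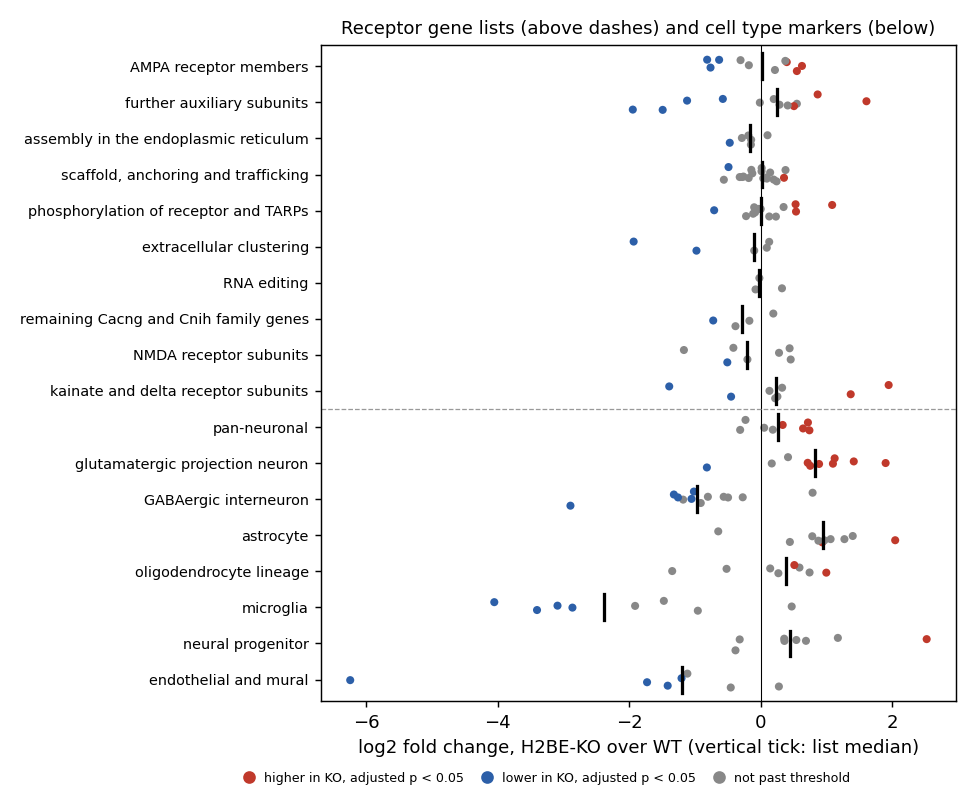
Log2 fold change of each tested gene, H2BE-KO over WT (x axis), by list, with a vertical tick at the list median. Receptor lists are above the dashed line and cell type markers below it, and the 12 further auxiliary subunits spread from -1.95 to 1.60.

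Of 15 genes of the other ionotropic glutamate receptors, 2 rose and 3 fell, and the median was 0.22. These calls were 33.3% of the list, against 21.8% of all tested genes and 30.0% of those within the AMPA receptor genes' range of mean count. NMDA receptor subunits gave 1 fall of 7, Grin1, the obligatory subunit gene, at -0.51 (SE 0.16, adjusted p = 0.0109) in the authors' deposited table. Kainate and delta receptor subunits and the kainate receptor partners Neto1 and Neto2 gave 2 rises and 2 falls of 8. Grik3 (1.94, SE 0.30) and Neto2 (1.37, SE 0.28) were higher and Grik1 (-1.39, SE 0.33) and Grik2 (-0.45, SE 0.14) lower in the authors' deposited table. Whether these receptor families differ from one another in their response was not tested.

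Markers of interneurons and of projection neurons also differed between the genotypes. Of 12 GABAergic interneuron markers, 5 fell and none rose, with a median of -0.97. Over all tested genes, 10.9% passed as lower and 11.0% as higher in the knockout. None of the 12 interneuron markers had a mean count near 0, the lowest being 286 for Dlx2 in the authors' deposited table. Their summed level was about 75098 in KO neurons, against 140134 in WT neurons, with Npy at -2.89, Lhx6 at -1.26, Gad1 at -1.02 and Slc32a1 at -1.32 in the authors' deposited table. Of 10 markers of glutamatergic projection neurons, 7 rose and 1 fell, and the summed level was about 47900 in KO neurons, against 28216 in WT neurons. Tbr1 was at 1.90, Neurod2 at 1.12, Emx1 at 1.41 and Bcl11b at 0.71 in the authors' deposited table. In bulk RNA, fewer cells of a type and less RNA per cell cannot be told apart. The part of these markers in the rises and falls of Gria1 to Gria4, Cacng2 and Cacng4 was not tested.

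Among non-neuronal markers, 2 of 10 astrocyte markers rose and none fell, while 21.8% of all tested genes passed in either direction. Of the 10 estimates, 9 were above 0 and 1 below 0. The summed level of the list was about 20850 in KO neurons, against 10873 in WT neurons. Most of it came from 1 gene, the glutamate transporter gene Slc1a2, at about 17705 in KO neurons, against 9274 in WT neurons. Slc1a2 was at 0.93 and Aldoc at 2.04 in the authors' deposited table. Microglia markers gave 4 falls of 8 tested and were low in both groups, with a summed level of about 53.9 in KO neurons, against 173.9 in WT neurons. Csf1r was the highest of them, with a mean count of 25.0 in the authors' deposited table. Oligodendrocyte markers gave 2 rises of 8 tested, Mog (0.99) and Cnp (0.51), and neural progenitor markers 1 rise of 8, Eomes (2.52), in the authors' deposited table. Endothelial and mural markers gave 4 falls of 7 tested, with Cldn5 at -6.24, Acta2 at -1.73, Tagln at -1.42 and Pdgfrb at -1.21 in the authors' deposited table, where Cldn5 had an SE of 1.74 and a mean count of 3.00. Sox10 was the lowest of all markers at a mean count of 0.29 in the authors' deposited table, and it was not tested. The part of these cells in the changes of the AMPA receptor genes was not tested.

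**Figure D5:**
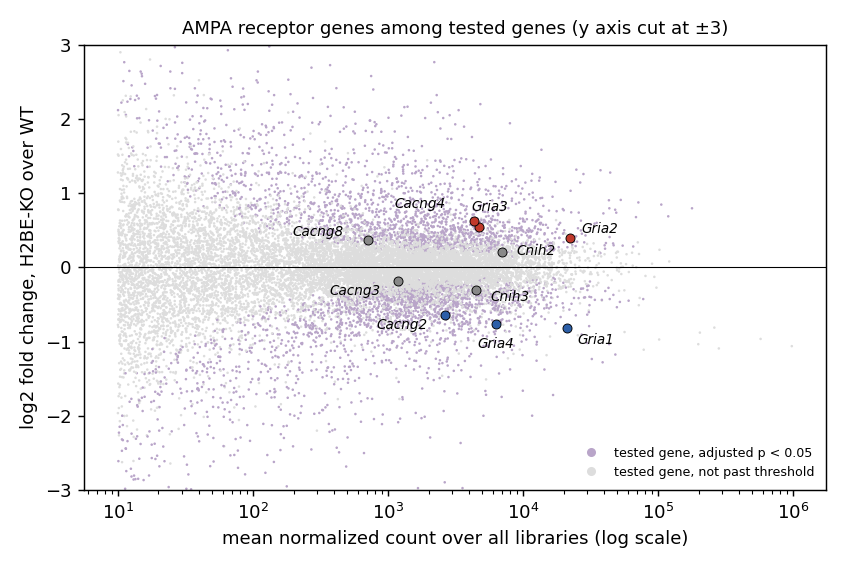
Log2 fold change, H2BE-KO over WT, against the mean normalized count (log scale) for tested genes with a mean count of at least 10, with the AMPA receptor genes labelled. Points beyond 3 on either side of 0 are outside the axis, and the 6 AMPA receptor genes that passed lie among many other called genes of similar count.

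The calls rest on the normal null of the deposited Wald test. When p came from a t distribution (6 degrees of freedom), none of the 10 genes passed, against 0.00553% of all tested genes, and the lowest adjusted p was 0.0721, for Cacng4. When the null was scaled to the spread of the Wald statistic over all tested genes, none passed either, against 0.409% of all, and the lowest was 0.287, also for Cacng4. At an unadjusted p of 0.05 the first left 6 of the 10 genes, the second 1 and the deposited p 7, and over all tested genes the shares were 23.3%, 8.52% and 33.0%.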

How the data were processed

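Polyadenylated RNA of 4 KO and 4 WT cultures was sequenced from stranded libraries, per the labels' protocols. Reads were mapped to mm10 and compared with DESeq2 (with DESeq named too), per the submitters' processing notes. Versions, the aligner, the counting tool and the annotation are not stated in the sources used here. The deposited signal is a mean of counts divided by size factors over all libraries, per the file headers. Fold changes and their SE were deposited on the log2 scale, and the deposited score is a Wald statistic, per the file headers. The deposited p-value and adjusted p-value were checked: the score matched fold change over SE within 2.86e-07, and Benjamini-Hochberg adjustment over the 18085 tested genes matched within 0.757%. Another 8135 genes had a p but no adjusted p, all with a mean count of at most 2.99, and 9 had neither. No values per library were used, so no count model was refitted. Mean normalized counts summed to 3.96e+07.

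Here, signs were turned to KO over WT, intervals are Wald 95% intervals, and group levels assume 4 libraries each. Lengths come from GENCODE M21, which matched 26039 rows. The members and lists were chosen with earlier results of these data known, and 1 gene of the receptor lists is not reported here. Named genes are all 10 members, H2bc21, and in each other list at most 4 called genes, by adjusted p, or where none was called at most 2, by mean count. Shisa7, Shisa9, Cacng5, Dlx2, Sox10, Neto1 (without a value) and the genes that overlap a member were named outside this rule, after their values were seen. The same holds for Cacng7, Syt1 and Snap25. The adjustment and alternatives were tested on simulated data. Python 3.11.15, numpy 2.4.6, pandas 2.3.3, scipy 1.17.1, matplotlib 3.10.9 and Biopython 1.88 were used.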

Additional observations from a re-analysis of the deposited data

How the results depend on the processing

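No paired analysis was possible because the table holds no values per library, and for the same reason no replicate was left out in turn. Of the 8 alternatives, recentring and removal of a dependence on transcript features could move a fold change, and all 10 genes kept their sign under both. With p from a t distribution (6 degrees of freedom), 0 AMPA receptor genes, 0 of the 61 other AMPA receptor genes, 0 of the 15 other ionotropic receptor genes and 1 of all tested genes passed, and 6, 17, 5 and 4219 had an unadjusted p under 0.05. With an empirical null, 1.96 times as wide as the normal, 0, 0, 0 and 74 passed, and 1, 11, 3 and 1541 had an unadjusted p under 0.05. Benjamini-Hochberg adjustment was used in both. At an adjusted p of 0.01, 2522 genes passed in all, 13.9% of those tested, as did 3 of the 15 other ionotropic receptor genes, against 5 at 0.05, and Cacng2 was lost. At 0.1, Cnih3 was added. After removal of the dependence on exon length and base composition Gria2 was lost and Cnih2 gained, and the cause was not tested. Recentring, which moved all values by 0.01, and both changes of the count filter altered no call among the 10 genes. The SE, from 0.11 for Gria2 to 0.25 for Cacng8, limits what could be detected.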
